A study of Homo sapiens with 6 samples.

Results

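The C/EBP transcription factors are described here across RNA-seq libraries of SK-MES-1, a human lung squamous cell carcinoma line. The family was chosen by gene name, with CEBPA, CEBPB, CEBPD, CEBPE, CEBPG and CEBPZ as its 6 members among the 58735 genes of the deposited table. It was proposed with the levels of these same libraries already known, the large difference of CEBPD between si1 and NC included. The members' differences between groups are therefore given as a description: no p-value is given for them, and the fit's calls on them are counted but not read as evidence.

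The study sequenced total RNA from cells with a transient knockdown of KRT6A and from control cells. The library names give 3 groups, si1, si2 and NC, with 2 libraries each. The labels do not spell the names out. si1 and si2 were taken as the knockdown groups, and NC as the control. All groups are the same cell line, with no other treatment in the labels, and nothing states that the 2 libraries of a group came from separate cultures. A p-value here therefore measures the spread between these libraries, which may be technical.

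Levels are FPKM, the fragment count of a gene divided by its length and by the library's depth, as deposited. Whole reads could be read back from every value, and the libraries held 14948607 to 17401392 reads in genes, with 7.82% to 8.73% of them mitochondrial. KRT6A, the knockdown target, had 0 reads in all 6 libraries, NC included, so the knockdown could not be checked. Of 15 squamous markers, which summed to 32.3 to 38.9 FPKM by library, 4 reached a mean of 1 FPKM: TP63, PKP1, SERPINB5 and KRT15. The others stayed low, among them DSG3 and CALML3 with 0 reads, and KRT5 and KRT14 at or under 0.0268 FPKM in every library. TP63 averaged 5.35 ± 0.0168 FPKM in si1, 11.9 ± 1.38 in si2 and 6.11 ± 0.195 in NC (SD, n = 2 each). The desmosome protein gene PKP1 averaged 18.4 ± 0.689 FPKM in si1, 9.91 ± 0.0129 in si2 and 19.0 ± 0.766 in NC, and SERPINB5 lay between 8.09 and 11.2 FPKM in all 6. TP63 rose (0.85, adjusted p = 0.00119) and PKP1 fell (-0.87, adjusted p = 4.06e-04) in si2 against NC, and KRT15 fell in si1 (-0.80, adjusted p = 0.00943), a call lost without NC replicate 2. Their part in the values of the C/EBP genes was not tested. Of 8 pan-epithelial markers, 6 were tested. In si1 against NC 3 rose and 2 fell, beside 9.47% and 12.9% of all genes. In si2 against NC 2 rose and 3 fell, beside 13.6% and 15.4%. Among them the keratins KRT7, KRT8, KRT18 and KRT19 of simple epithelia lay between 39.6 and 184.6 FPKM. Over 12 alternative settings, the log2 difference in si2 against NC was -0.72 to -0.65 for KRT7 and -0.78 to -0.61 for KRT19. It was 0.21 to 0.34 for KRT18.

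C/EBP proteins bind DNA as dimers through a basic region and a leucine zipper, and their dimers recognise palindromes close to TTGCGCAA. CEBPA and CEBPB are best known from liver, fat and myeloid cells, CEBPD from the acute-phase response downstream of IL-6 and STAT3, and CEBPE from granulocyte maturation. CEBPG lacks the activation domain of its relatives. It pairs with them, and with ATF4, the stress-response factor that drives amino acid supply genes. CEBPZ shares the letters of the name but not the zipper: it is the human counterpart of a yeast nucleolar protein of ribosome assembly. The deposited annotation likewise puts 5 of the members in its C/EBP family and CEBPZ outside it.

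The promoter of CEBPG is shown because it held the only match to the composite C/EBP-ATF response element, TGATGNAA, among the member promoters searched. Another annotated start of CEBPG, with its window at chr19:33373459-33373758, held no match, and CEBPD had no window to search. The window shown runs from 250 bases before to 50 bases after the transcription start, from RefSeq on GRCh38.p14, chr19:33373863-33374162 on the plus strand. Capitals mark the match, whose first base lies at -42 from the start.
CEBPG promoter: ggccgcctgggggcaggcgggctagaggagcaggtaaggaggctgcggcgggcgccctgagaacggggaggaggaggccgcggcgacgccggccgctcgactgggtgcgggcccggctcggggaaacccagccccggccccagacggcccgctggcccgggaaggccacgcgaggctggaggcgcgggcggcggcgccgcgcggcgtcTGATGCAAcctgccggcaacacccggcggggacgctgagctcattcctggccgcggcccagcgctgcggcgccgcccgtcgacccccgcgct

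The same letters occur near an annotated start of 5 genes from a list of the ATF4 pathway, whose levels are described further on, so the matches are set beside that of CEBPG. Each is read 5′ to 3′ on the strand that carries the match, with the match in capitals. The stretches lie at chr19:33374060-33374089 for CEBPG, chr7:97872458-97872487 for ASNS, chr15:40953251-40953280 for CHAC1, chr13:29595663-29595692 for SLC7A1, chr19:46784893-46784922 for SLC1A5 and chr11:62881725-62881748 for SLC3A2.
CEBPG: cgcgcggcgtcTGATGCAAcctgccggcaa
ASNS: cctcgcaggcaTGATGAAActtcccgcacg
CHAC1: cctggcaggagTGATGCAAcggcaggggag
SLC7A1: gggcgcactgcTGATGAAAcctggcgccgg
SLC1A5: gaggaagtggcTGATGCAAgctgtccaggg
SLC3A2: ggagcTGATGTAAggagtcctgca

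CEBPG, CHAC1 and SLC1A5 carry TGATGCAA, ASNS and SLC7A1 carry TGATGAAA, and SLC3A2 carries TGATGTAA. The stretches of SLC3A2 and SLC1A5 belong to starts well inside the genes as deposited, not to their outermost start. Those genes span chr11:62856102-62888875 (plus strand) and chr19:46774883-46788594 (minus strand). Of the 27 ATF4-pathway genes in the list, 19 had a RefSeq window and 5 of those held a match on either strand (26.3%), against 1217 of 27305 gene symbols in all (4.46%). The list was drawn up from known genes of that pathway, so this difference is not read as a test. By window, TGATGNAA matched 3.62% of the 35116 windows in the table. Windows of 5 members were in the table, and CEBPD had none there. The C/EBP palindrome TTGCGCAA (0.151% of all windows), the looser TTGCNNAA (10.5%) and the cyclic-AMP element TGACGTCA (1.85%) matched no window of those 5 members. TTCNNNGAA of the STAT factors (7.66%) and TGANTCA of AP-1 (7.71%) matched the CEBPE window and no other of theirs. A match describes letters within the window and shows no binding.

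CEBPD was the member that differed most between groups. It had 57.4 and 58.8 FPKM in the si1 libraries, 28.1 and 31.5 FPKM in the si2 libraries, and 13.9 and 15.6 FPKM in the NC libraries. The 3 groups did not overlap: both si1 libraries were highest and both NC libraries lowest. The gene lies on chr8:47736909-47739086, minus strand, on hg38, and 505 to 2168 reads stood behind each value. Its mean was 58.1 ± 1.0 FPKM in si1, 29.8 ± 2.37 in si2 and 14.7 ± 1.23 in NC (SD, n = 2 each), which is 3.94 times NC in si1 and 2.02 times NC in si2. On the log2(FPKM + 1) scale the difference was 1.91 (SE 0.0834) for si1 against NC and 0.97 (SE 0.0834) for si2 against NC. This scale understates the change of low genes, and both comparisons share the NC libraries. Between the knockdown groups, si2 lay 0.94 below si1 on the same scale (-0.94, SE 0.0834). Ranked by the difference from NC, CEBPD was 4th highest of 12319 genes in si1 and 109th highest in si2.

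CEBPB, which encodes an activator and, from a downstream start codon, a shorter inhibitory form, had the highest level of the family in every library. It had 60.7 and 65.0 FPKM in si1, 57.0 and 59.0 FPKM in si2, and 43.8 and 44.1 FPKM in NC. All 4 knockdown libraries were above both NC libraries, and the si2 libraries were below both si1 libraries. The means were 62.8 ± 3.05 FPKM in si1, 58.0 ± 1.38 in si2 and 43.9 ± 0.228 in NC (SD, n = 2 each). The log2 difference was 0.51 (SE 0.0607) for si1 against NC, 0.39 (SE 0.0607) for si2 against NC and -0.11 (SE 0.0607) for si2 against si1. CEBPB lies on chr20:50190734-50192689, plus strand. RNA levels do not tell its protein forms apart.

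CEBPG was lowest in si1. It had 14.6 and 12.9 FPKM in si1, 27.1 and 24.3 FPKM in si2, and 22.8 and 23.7 FPKM in NC. Both si1 libraries were below the other 4, and both si2 libraries were above both NC libraries by a small margin. The means were 13.7 ± 1.22 FPKM in si1, 25.7 ± 1.94 in si2 and 23.2 ± 0.596 in NC (SD, n = 2 each). The log2 difference was -0.72 (SE 0.0863) for si1 against NC, 0.14 (SE 0.0863) for si2 against NC and 0.86 (SE 0.0863) for si2 against si1. In si1, CEBPG and CEBPD therefore stood on opposite sides of NC. CEBPG lies on chr19:33373330-33382686, plus strand.

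CEBPZ varied little. It had 12.9 and 14.9 FPKM in si1, 17.8 and 16.1 FPKM in si2, and 15.6 and 16.1 FPKM in NC. The si1 libraries were the lowest 2, and the si2 and NC libraries overlapped. The log2 difference was -0.18 (SE 0.0891) for si1 against NC, 0.09 (SE 0.0891) for si2 against NC and 0.27 (SE 0.0891) for si2 against si1. CEBPZ lies on chr2:37201612-37231713, minus strand.

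CEBPA and CEBPE were not expressed at a level that allows a comparison. CEBPA, on chr19:33299934-33302564, minus strand, had 4 and 5 reads in si1, 9 and 3 reads in si2, and 3 and 11 reads in NC, or 0.0682 to 0.238 FPKM. Its groups overlapped. CEBPE, on chr14:23117304-23119616, minus strand, had 0 reads in every library, which allows a level of up to 0.11 to 0.128 FPKM by library (3 reads, counting error only).

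**Figure D1:**
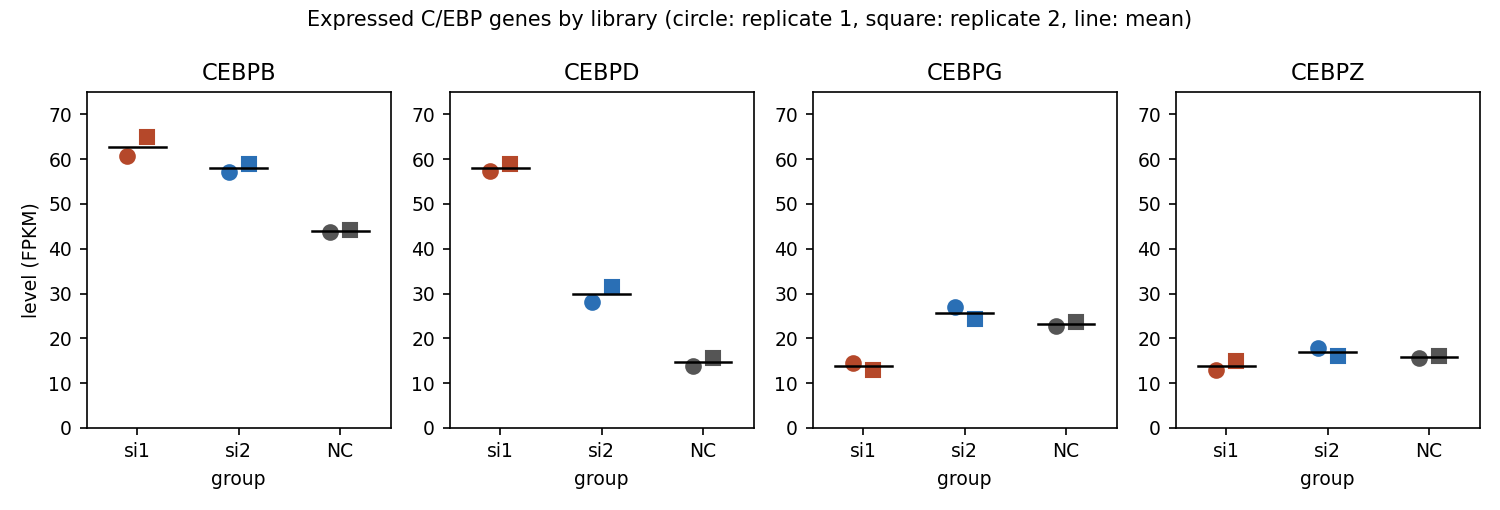
Levels in FPKM of the 4 expressed members in each library, with si1, si2 and NC along the horizontal axis, a circle for replicate 1, a square for replicate 2 and a line at the group mean. CEBPD falls into 3 separate pairs, CEBPB has both NC libraries lowest, CEBPG has both si1 libraries lowest, and CEBPZ stays between 12.9 and 17.8 FPKM.

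Of the 6 members, 4 reached the mean of 1 FPKM needed for the test over all genes, limma on log2(FPKM + 1) with Benjamini-Hochberg adjustment at 0.05. In si1 against NC, 2 members were past the threshold as higher, CEBPB and CEBPD, and 1 as lower, CEBPG, where 9.47% of all tested genes were called higher and 12.9% lower. In si2 against NC, the same 2 members were called higher and the other 2 were not past the threshold, where 13.6% of genes were called higher and 15.4% lower. In si2 against si1, CEBPG and CEBPZ were called higher and CEBPD lower, beside 19.9% of genes higher and 18.6% lower. Since the family was chosen from these contrasts, nothing is read from these counts. The call on CEBPZ held under 3 of 12 alternative settings; it was lost without any one of si1 replicate 1, either si2 library or either NC library, and without the filter on low values, with median-ratio scaling, with a replicate block or with only the 2 groups fitted.

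**Figure D2:**
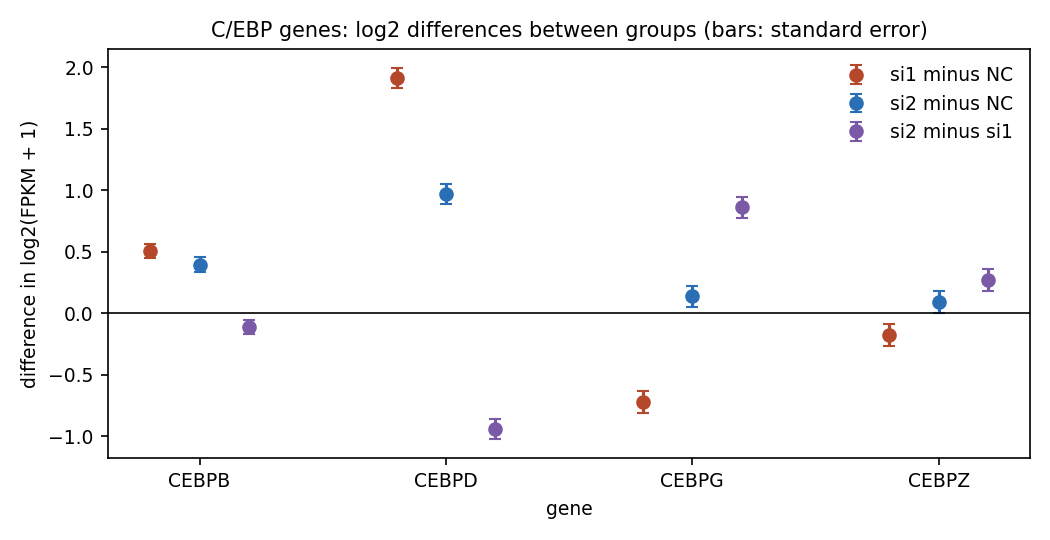
Differences in log2(FPKM + 1) between groups for the 4 expressed members, with bars for the standard error of the fit. CEBPD is highest in both comparisons with NC (1.91 and 0.97), and CEBPG lies at -0.72 in si1 and 0.14 in si2.

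Together the C/EBP zipper genes summed to 133 and 137 FPKM in si1, 112 and 115 FPKM in si2, and 80.5 and 83.6 FPKM in NC. The groups did not overlap. CEBPD made up 43.2% and 43.0% of that sum in si1, 25.0% and 27.4% in si2, and 17.2% and 18.7% in NC. CEBPG made up 11% and 9.39% in si1, 24.1% and 21.2% in si2, and 28.3% in each NC library. CEBPB held 45.7% to 54.4% in all 6. The level of CEBPD was thus 3.94 and 4.58 times that of CEBPG in si1, 1.04 and 1.29 times in si2, and 0.608 and 0.66 times in NC: CEBPG was above CEBPD in NC and below it in both knockdown groups. These are shares of RNA by length, not of protein.

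**Figure D3:**
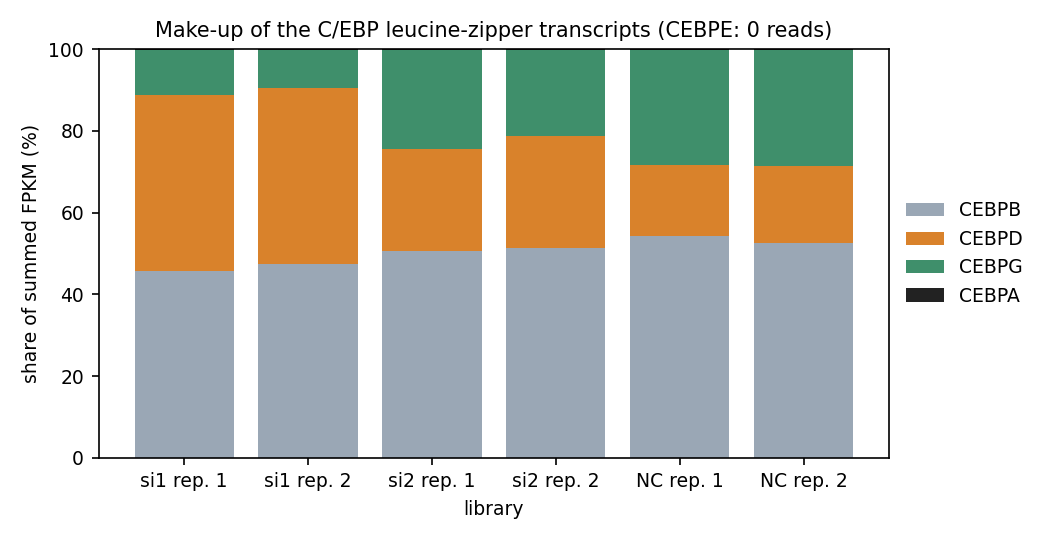
Share of each gene in the summed FPKM of the C/EBP zipper genes, in percent, 1 bar per library. The CEBPD part is largest in the si1 bars (43.2% and 43.0%), the CEBPG part is largest in the NC bars (28.3% each), and CEBPA is too low to see.

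The genes around the members were measured for shared reads and neighbouring changes. Whether counting used strand is not given in the sources used here, so reads of overlapping genes cannot be told apart. CEBPZ shares 14582 bases with CEBPZOS on the other strand and 83 bases with NDUFAF7. CEBPZOS averaged 8.36 FPKM in si1, 7.11 in si2 and 8.66 in NC, and neither gene passed the threshold in any comparison. CEBPB overlaps CEBPB-AS1, which stayed at or under 0.215 FPKM. CEBPD overlaps no gene. Its neighbours are SPIDR, a DNA repair gene 603 bases away, and PRKDC, the catalytic subunit of DNA-PK, 34022 bases away. SPIDR averaged 6.27 FPKM in si1, 4.20 in si2 and 4.57 in NC, with no call against NC. In si2 against si1 it fell (-0.48, SE 0.118, adjusted p = 0.0167), as CEBPD was lower there, a call lost without si1 replicate 1 or si2 replicate 2. PRKDC averaged 36.9 FPKM in si1, 36.3 in si2 and 36.8 in NC. PEPD, a dipeptidase gene 4264 bases from CEBPG, fell in si2 against NC (-0.37, SE 0.0844, adjusted p = 0.0173) and had a difference of 0.14 in si1 (adjusted p = 0.276). That call on PEPD was lost when any single si2 or NC library was left out. PRKD3, a protein kinase gene 18789 bases from CEBPZ, was higher in si2 than in si1 (0.46, SE 0.145, adjusted p = 0.0433), and that call was lost without si1 replicate 1, si2 replicate 1 or either NC library. The call on PRKD3 held under 5 of 12 alternative settings. AC007390.2, which shares 3803 bases with CEBPZ, stayed at or under 0.404 FPKM. The other overlapping or nearest genes were under the filter.

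The genes most like CEBPD across the 6 libraries were sought among 756 protein-coding genes that varied at least 50% as much. The correlation of LPCAT1, a phospholipid remodelling enzyme, was highest (Pearson r = 0.997, n = 6 libraries), followed by that of PFKL, a phosphofructokinase subunit (0.995). TNS2 (0.990) and ADAM15 (0.988) were also among the 5 nearest. These 4 had the same order, si1 highest and NC lowest. LPCAT1 had 54.7 and 52.8 FPKM in si1, 35.8 and 36.8 FPKM in si2, and 23.6 and 24 FPKM in NC. For CEBPG the 2 nearest patterns were those of PANK3, a pantothenate kinase (r = 0.999), and CHIC2 (0.998). For CEBPB they were CHST11 (0.998) and ZNF160 (0.998), and for CEBPZ SRPX2 (0.986) and USP46 (0.981). These genes were picked for the likeness, and with 3 groups of 2 libraries many genes reach a high r: 23 of the 756 passed 0.95 for CEBPD.

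Partners of the family include other leucine-zipper factors. Of 23 listed partners, 18 were tested. In si1 against NC 3 rose and 4 fell, beside 9.47% and 12.9% of all genes tested. In si2 against NC 2 rose and 2 fell, beside 13.6% and 15.4%. The median log2 difference was -0.08 in si1 and 0.14 in si2, beside -0.01 and 0.00 over all genes. ATF4 had 111.0 and 123.3 FPKM in si1, 188.7 and 185.2 FPKM in si2, and 170.9 and 152.2 FPKM in NC. Both si1 libraries were below the other 4, and both si2 libraries were above both NC libraries. ATF4 fell in si1 against NC (-0.46, SE 0.0764, adjusted p = 0.00665); in si2 the difference was 0.21 (SE 0.0764, adjusted p = 0.0783), and si2 was higher than si1 (0.67, adjusted p = 8.08e-04). DDIT3, which encodes the C/EBP-related CHOP, differed by -0.31 in si1 (adjusted p = 0.129) and 0.06 in si2 (adjusted p = 0.737).

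XBP1, the zipper factor of the unfolded protein response, was low in si1 as well. It had 24.3 and 26.6 FPKM in si1, 53.4 and 54.0 FPKM in si2, and 53.2 and 54.0 FPKM in NC. XBP1 fell in si1 (-1.05, SE 0.0644, adjusted p = 1.67e-04) and differed by 0.00 in si2 (SE 0.0644, adjusted p = 0.964). CREB5 fell in si1 (-1.16, adjusted p = 6.88e-04) and in si2 (-0.53, adjusted p = 0.0118). NFIL3 rose in si1 (0.57, adjusted p = 0.00998) and differed by 0.26 in si2 (adjusted p = 0.111). The partners that rose in both groups were BATF, an AP-1 family factor, and DBP, a clock-controlled zipper factor. BATF averaged 8.66 ± 0.819 FPKM in si1, 10.8 ± 0.71 in si2 and 6.70 ± 0.193 in NC (SD, n = 2 each). It rose in si1 (0.32, adjusted p = 0.0411) and in si2 (0.62, adjusted p = 0.00341), though the call in si1 was lost without any one library other than si1 replicate 2. The BATF call in si1 held under only 3 of the 12 alternatives. DBP averaged 2.16 ± 0.0966 FPKM in si1, 1.69 ± 0.255 in si2 and 0.955 ± 0.0462 in NC. It rose in si1 (0.69, adjusted p = 0.0118), a call lost without si1 replicate 2 or either NC library, and in si2 (0.46, adjusted p = 0.0421), a call lost without any single library. The DBP call held under 8 of the 12 alternatives in si1 and under 3 in si2.

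Counts of called partners rest on single NC libraries: in si1, 1 partner rose without NC replicate 1 and 0 without NC replicate 2, with 2 falling without NC replicate 1. Leaving out NC replicate 1 ended the call on ATF4, whose adjusted p reached 0.0553 over the alternatives, and leaving out NC replicate 2 ended that on NFIL3. The ATF4 difference in si2 was called under 4 of the 12 alternatives, leaving out either si1 library among them. In si2, 1 partner rose and 0 or 1 fell without either si2 library or either NC library, and the CREB5 call there was lost without si2 replicate 1 or either NC library.

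Upstream of CEBPB and CEBPD stand the IL-6 family, the IL-1 family and their signalling proteins. Of 34 listed genes 30 were tested. In si1 against NC 2 rose and 8 fell, beside 9.47% and 12.9% of all genes. In si2 against NC 7 rose and 6 fell, beside 13.6% and 15.4%. STAT3, the factor that drives CEBPD after IL-6, had 40.4 and 35.9 FPKM in si1, 23.7 and 21.1 FPKM in si2, and 22.1 and 24.1 FPKM in NC. Both si1 libraries were highest, and si2 and NC overlapped. STAT3 rose in si1 (0.70, SE 0.091, adjusted p = 0.00247) and differed by -0.04 in si2 (adjusted p = 0.761), and the 2 knockdown groups differed (adjusted p = 0.00111). SOCS3, a STAT3 target that dampens the pathway, also rose in si1 (0.41, SE 0.0709, adjusted p = 0.00748), with -0.08 in si2 (adjusted p = 0.413). The SOCS3 call was lost without either NC library.

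The ligands and the receptor genes did not share one direction. IL6 rose in si2, with a mean of 3.39 FPKM against 1.63 FPKM in NC (0.74, SE 0.122, adjusted p = 0.00546), and differed by 0.25 in si1 (adjusted p = 0.191). IL6ST, the shared receptor chain gp130, fell in si1 (-0.41, adjusted p = 0.00553) and in si2 (-0.39, adjusted p = 0.00605), though neither call held without NC replicate 1. The receptor genes IL6R (0.70, adjusted p = 0.00351), LIFR (0.33, adjusted p = 0.0148), IL1R1 (0.45, adjusted p = 0.0296) and IL1RAP (0.33, adjusted p = 0.0396) rose in si2. In si1 these receptor genes were not past the threshold. LIF, another ligand of gp130, fell in si1 (-1.32, adjusted p = 1.31e-04) and in si2 (-0.32, adjusted p = 0.0192). IL1A fell in si1 (-1.11, adjusted p = 7.67e-04) and rose in si2 (0.73, adjusted p = 0.00327), with si2 above si1 (adjusted p = 6.2e-05). IL1B fell in si1 (-1.17, adjusted p = 9.86e-04). MYD88, the adaptor of IL-1 and Toll-like receptors, fell in si2 (-1.76, adjusted p = 1.85e-04). Without any single si2 or NC library, 3 or 4 of these genes rose and 1 to 3 fell in si2; in si1, 1 rose without either NC library, and 3 fell without NC replicate 1 and 5 without NC replicate 2. The LIF call in si2 was lost without si2 replicate 1 or either NC library.

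Regulators of C/EBP protein number 30 in the list, and 30 were tested. In si1 against NC 4 rose and 7 fell, beside 9.47% and 12.9% of all genes. In si2 against NC 8 rose and 1 fell, beside 13.6% and 15.4%. TRIB1 and TRIB2 encode pseudokinases that bring C/EBP proteins to the ubiquitin ligase COP1. TRIB1 rose in si2 (0.92, SE 0.0875, adjusted p = 7.07e-04) and differed by 0.29 in si1 (adjusted p = 0.0565). TRIB2 rose in si2 (0.62, adjusted p = 0.00128). COP1 itself fell in si1 (-0.49, adjusted p = 0.00422) and rose in si2 (0.27, adjusted p = 0.0309), and TRIB3, an ATF4 target, did the same (-0.47 in si1, adjusted p = 0.00434; 0.44 in si2, adjusted p = 0.00518). HDAC1, a deacetylase, rose in si2 (0.75, adjusted p = 8.19e-04). CALR, a chaperone whose protein binds C/EBP messages, fell in si1 (-0.47, adjusted p = 9.45e-04) and si2 (-0.40, adjusted p = 0.00154). The counts moved with single libraries: in si1, 1 gene rose without NC replicate 1 and 0 without NC replicate 2, with 3 falling in each case, and in si2, 5 rose without si2 replicate 2 or NC replicate 2. The COP1 call in si2 was lost without any single si2 or NC library and held under 6 of the 12 alternatives.

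Acute-phase and inflammatory genes are textbook targets of CEBPB and CEBPD. Of 34 such genes in the table, 18 were tested. In si1 against NC 7 rose and 5 fell, beside 9.47% and 12.9% of all genes. In si2 against NC 11 rose and 2 fell, beside 13.6% and 15.4%. Whether CEBPB or CEBPD had a part in these values was not tested. The median log2 difference of the list was -0.01 in si1 and 0.71 in si2. Serum amyloid SAA1 had 11.8 and 9.35 FPKM in si1, 9.46 and 10.4 FPKM in si2, and 4.51 and 6.08 FPKM in NC. SAA1 rose in si1 (0.88, SE 0.148, adjusted p = 0.00681) and in si2 (0.81, SE 0.148, adjusted p = 0.00842), as did its near-identical copy SAA2 (1.00 and 1.29), whose reads cannot be told apart with certainty. LCN2, the iron-binding protein lipocalin, rose in si1 (0.81, adjusted p = 0.00327) and in si2 (1.25, adjusted p = 5.89e-04).

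Other members of that list set the 2 knockdown groups apart. Complement C3 had 27.2 and 22.3 FPKM in si1, 10.3 and 9.29 FPKM in si2, and 9.90 and 11.4 FPKM in NC. It rose in si1 (1.14, SE 0.116, adjusted p = 0.00101), and si2 and NC overlapped (-0.11, adjusted p = 0.523). PTGES, a prostaglandin E synthase, rose in si1 (0.62, adjusted p = 7.8e-04) and fell in si2 (-0.84, adjusted p = 2.67e-04). The pentraxin PTX3 ran the other way, falling in si1 (-1.48, adjusted p = 8.7e-05) and rising in si2 (0.75, adjusted p = 7.15e-04). Among chemokines, CXCL1 rose in both (0.84, adjusted p = 8.83e-04, and 1.64, adjusted p = 9.7e-05), though it shares sequence with CXCL2 and CXCL3. CXCL5 rose in si2 (1.21, adjusted p = 1.65e-04), with -0.04 in si1 (adjusted p = 0.708). CXCL8 fell in si1 (-0.72, adjusted p = 0.00272). CSF2, the gene of GM-CSF, fell in si1 (-1.54, adjusted p = 3.85e-04) and differed by -0.04 in si2 (adjusted p = 0.845). Over 12 alternatives, 5 to 7 genes of the list rose in si1 and 9 to 12 in si2. Without the filter on low values the SAA1 calls (adjusted p up to 0.063) and the SAA2 call in si1 (0.0514) were lost.

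**Figure D4:**
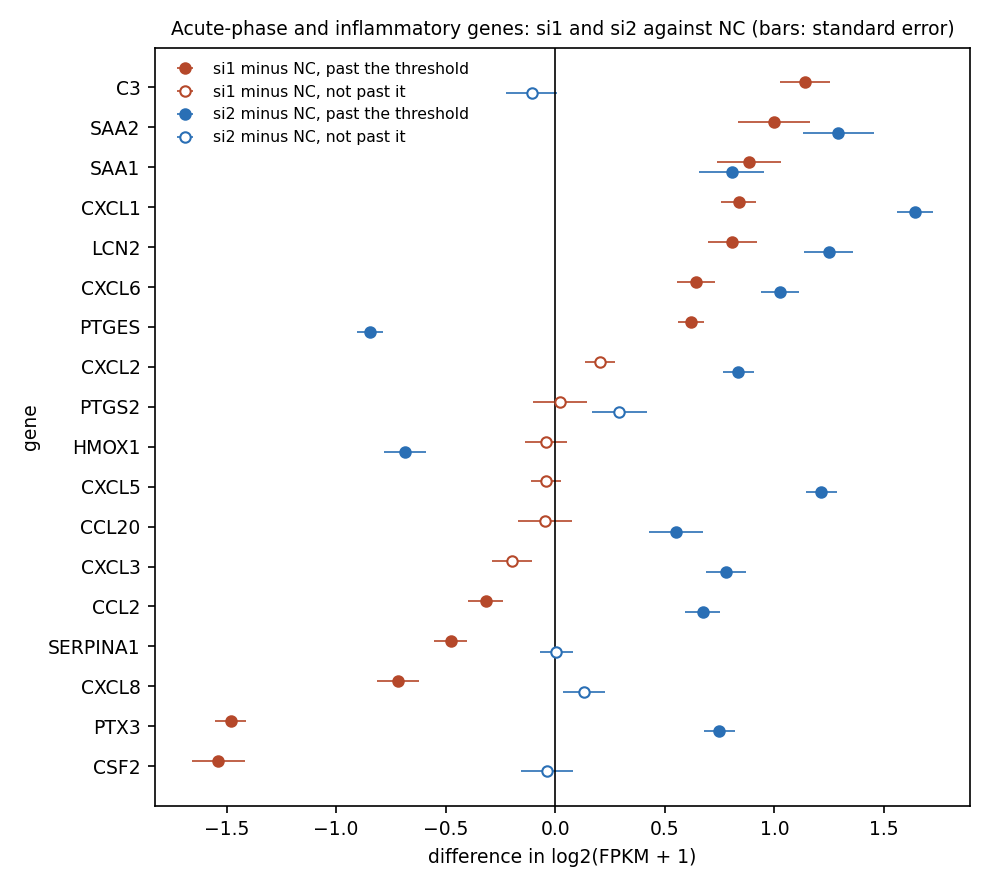
Differences in log2(FPKM + 1) from NC for the 18 tested acute-phase and inflammatory genes, si1 in red and si2 in blue, filled where past the threshold, with bars for the standard error. SAA1, SAA2, CXCL1, CXCL6 and LCN2 are filled on the right for both groups, and PTGES and PTX3 lie on opposite sides.

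Genes of the ATF4 pathway, which CEBPG-ATF4 dimers are known to drive, were mostly lower in si1. Of the 27 listed, 25 were tested. In si1 against NC 2 rose and 16 fell, beside 9.47% and 12.9% of all genes. In si2 against NC 9 rose and 3 fell, beside 13.6% and 15.4%. The median log2 difference was -0.45 in si1 and 0.14 in si2. In si2 against si1, 16 genes were higher and 1 lower, beside 19.9% and 18.6% of all genes. SLC7A11, the cystine carrier, had 60.1 and 61.8 FPKM in si1, 133.2 and 129.7 FPKM in si2, and 86.6 and 82.9 FPKM in NC. The groups were fully apart, with si1 below and si2 above NC. SLC7A11 fell in si1 (-0.47, SE 0.0549, adjusted p = 0.00169) and rose in si2 (0.63, SE 0.0549, adjusted p = 5.17e-04). PSAT1, of serine synthesis, did likewise (-0.63 in si1, adjusted p = 0.00136; 0.44 in si2, adjusted p = 0.00499).

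The genes of mitochondrial folate metabolism and several whose promoters were shown above fell in si1. SHMT2 fell by 1.14 on the log2 scale (adjusted p = 1.31e-04) and MTHFD2 by 0.94 (adjusted p = 2.62e-04). Their differences in si2 were -0.18 (adjusted p = 0.0762) and 0.03 (adjusted p = 0.737). SLC3A2, the partner chain of SLC7A11, fell in si1 (-0.48, adjusted p = 0.002) and rose in si2 (0.29, adjusted p = 0.0132), and the glutamine carrier SLC1A5 fell in si1 (-0.40, adjusted p = 0.00387), with 0.14 in si2 (adjusted p = 0.115). SLC7A1, a carrier of cationic amino acids, fell in si1 (-0.97, adjusted p = 6.82e-04), with 0.20 in si2 (adjusted p = 0.136). CHAC1, a glutathione-degrading enzyme, fell in si1 (-1.26, adjusted p = 0.00149) and in si2 (-0.76, adjusted p = 0.00916). The hormone gene STC2 fell in both as well (-1.34, adjusted p = 3.69e-04, and -0.81, adjusted p = 0.0021). The exceptions that rose in both were DDIT4, an inhibitor of mTORC1 (0.78, adjusted p = 0.00161, and 0.72, adjusted p = 0.00196), and GCLC, of glutathione synthesis (0.81, adjusted p = 5.57e-04, and 0.43, adjusted p = 0.0052). ASNS, the asparagine synthetase, was below the filter, with a mean of 0.398 FPKM in si1, 0.626 in si2 and 0.569 in NC. Over the 12 alternatives 13 to 16 genes of the list fell in si1. In si2, 5 rose without si2 replicate 1, and 4 without si2 replicate 2 or either NC library, and without either NC library 1 fell and the CHAC1 call was lost. The SLC3A2 call in si2 was lost without si2 replicate 2 or either NC library.

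**Figure D5:**
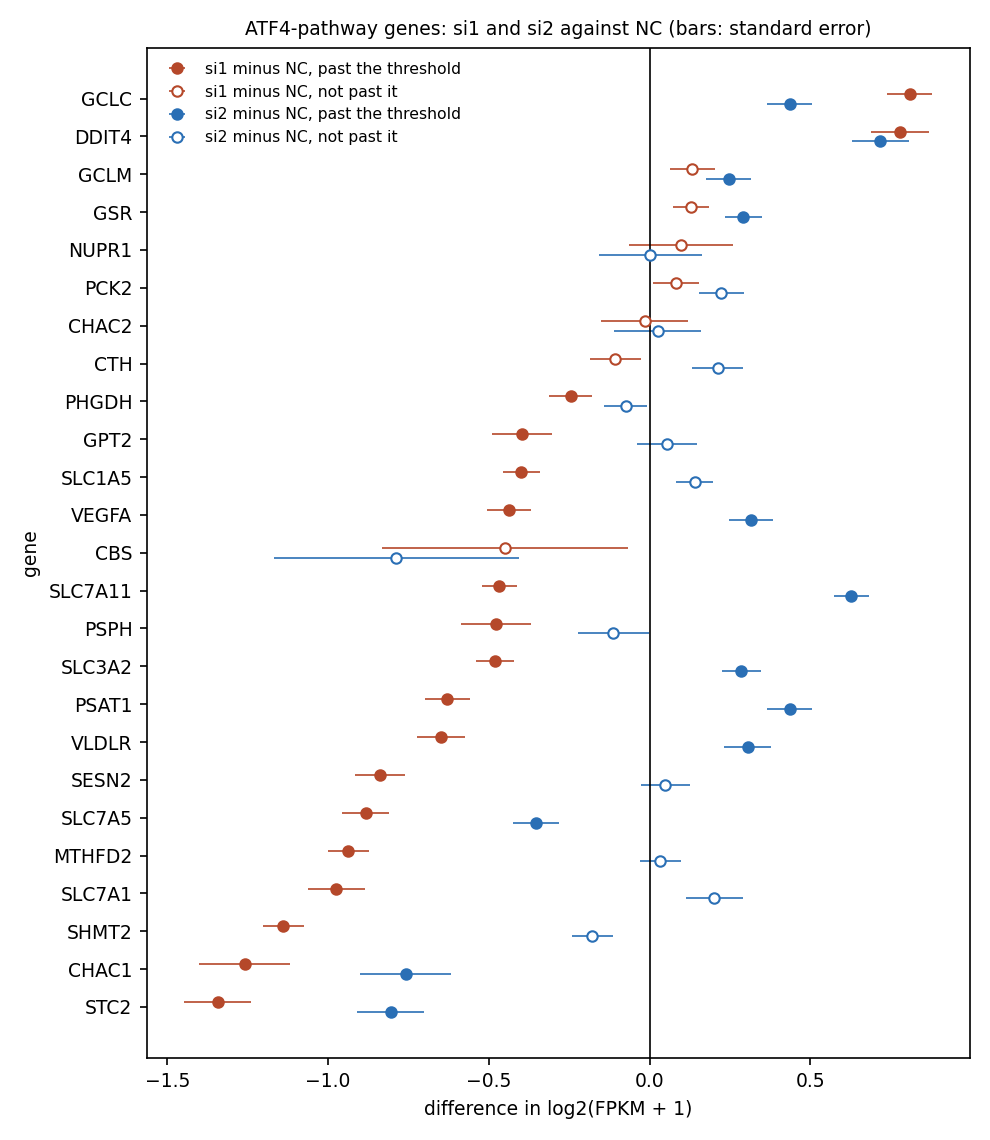
Differences in log2(FPKM + 1) from NC for the 25 tested ATF4-pathway genes, si1 in red and si2 in blue, filled where past the threshold, with bars for the standard error. Most si1 points are filled and left of 0 (16 fell), and most si2 points lie right of the si1 point of the same gene.

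Of 31 listed nucleolar partners of CEBPZ, 30 were tested. In si1 against NC 2 rose and 3 fell, beside 9.47% and 12.9% of all genes, and in si2 against NC 2 rose and 6 fell, beside 13.6% and 15.4%. The medians were -0.03 and -0.04. RRP1B fell in si1 (-0.57, adjusted p = 0.00298) and in si2 (-1.30, adjusted p = 1.82e-04), and the ribosome assembly factor NIP7 fell in si1 (-0.86, adjusted p = 0.00266). MAK16, another ribosome assembly factor, rose in si1 (0.40, adjusted p = 0.0245), a call lost without si1 replicate 1 or either NC library, and in si2 (0.86, adjusted p = 0.00123). The number that fell in si2 was 10 without either si1 library, 2 without si2 replicate 1 or NC replicate 1, and 3 without NC replicate 2. In si1, 0 rose without either NC library, and in si2, 1 rose without either si2 or either NC library.

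In the adipocyte programme, where CEBPB and CEBPD act early and CEBPA late, 12 of 25 genes were tested. In si1 against NC 1 rose and 2 fell, beside 9.47% and 12.9% of all genes. In si2 against NC 2 rose and 5 fell, beside 13.6% and 15.4%. The lipid synthesis genes SCD (-0.92, SE 0.0576, adjusted p = 1.85e-04), FASN (-0.63, adjusted p = 0.00351), ACSL1 (-0.87, adjusted p = 0.00152) and DGAT2 (-0.82, adjusted p = 0.00575) fell in si2. PNPLA2 also fell there (-0.45, adjusted p = 0.00342). The 2 genes that rose in si2 were PPARG (0.51, adjusted p = 0.0178) and KLF4 (0.41, adjusted p = 0.0169). In si1, SCD and FASN differed by 0.06 each (adjusted p = 0.491 and 0.68). PLIN2, a lipid droplet coat protein, rose in si1 (0.47, adjusted p = 0.00368). The 2 genes that fell in si1 were DGAT2 and KLF4, and 0 fell without any one of the libraries other than NC replicate 2, without which 1 fell. In si2, 0 genes rose without either si2 library or NC replicate 2, and 1 without NC replicate 1.

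C/EBP factors are also known for growth arrest and differentiation, and 20 of 25 such genes were tested. In si1 against NC 4 rose and 6 fell, beside 9.47% and 12.9% of all genes. In si2 against NC 6 rose and 6 fell, beside 13.6% and 15.4%. CCND1, cyclin D1, averaged 109.0 ± 8.99 FPKM in si1, 250.4 ± 0.698 in si2 and 278.7 ± 4.61 in NC (SD, n = 2 each). It fell in si1 (-1.35, adjusted p = 8.7e-05) and differed by -0.15 in si2 (adjusted p = 0.119), with si2 above si1 (adjusted p = 5.5e-05). CCND3 fell in si2 (-0.91, adjusted p = 4.06e-04). ID3, an inhibitor of helix-loop-helix factors, rose in si1 (0.81, adjusted p = 2.76e-04) and in si2 (0.25, adjusted p = 0.0178), and SMAD3 fell in both (-0.75, adjusted p = 6.08e-04, and -0.49, adjusted p = 0.00263). CDKN1A (-0.45, adjusted p = 0.00337, and -0.41, adjusted p = 0.00435) and GADD45A (-0.36, adjusted p = 0.00559, and -0.51, adjusted p = 0.00138) fell in both as well. The counts rest on single libraries: in si1, 2 rose without NC replicate 1 and 3 fell without NC replicate 2, and in si2, 1 to 3 rose without any single si2 or NC library, and the ID3 call was lost.

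Of 29 airway epithelial targets in the table, 6 were tested and 13 had 0 reads in every library. In si1 against NC 1 rose and 1 fell, beside 9.47% and 12.9% of all genes. In si2 against NC 1 rose and 1 fell, beside 13.6% and 15.4%. Each of these counts of list genes reached 0 under at least 1 of the alternatives. SLPI, a secreted protease inhibitor, rose in si1 (0.89, SE 0.176, adjusted p = 0.013), GATA6 fell in si1 (-0.38, adjusted p = 0.0339) and in si2 (-0.43, adjusted p = 0.0182), and FOXA1 rose in si2 (0.45, adjusted p = 0.0396). The SLPI call was lost without si1 replicate 2 or NC replicate 2, and the FOXA1 call without any single si2 or NC library. The GATA6 call in si1 was lost without any one library other than si1 replicate 1, and that in si2 without either si2 library or NC replicate 2. Of the 12 alternatives, 4 kept the GATA6 call in si1 and 8 that in si2.

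Markers of other cell types were measured for comparison. The 13 myeloid markers summed to 1.78 to 2.28 FPKM in si1, 2.32 to 2.51 in si2 and 1.95 to 2.49 in NC, with MPO, TYROBP and AIF1 at 0 reads throughout. The 8 endothelial markers summed to 0.569 FPKM at most. The 10 fibroblast markers summed to 20.5 to 25.5 FPKM in si1, 23.6 to 24.1 in si2 and 17.7 to 18.1 in NC. Both knockdown groups were above NC in this sum. COL1A1 made up most of it, with 20.4 ± 3.08 FPKM in si1, 20.8 ± 0.00605 in si2 and 15.4 ± 0.237 in NC (SD, n = 2 each). It rose in si1 (0.38, adjusted p = 0.0363) and in si2 (0.41, adjusted p = 0.0225). The call in si1 was lost without any one library other than si1 replicate 2, and that in si2 without any single si2 or NC library. Of the 12 alternatives, 5 kept the COL1A1 call in si1 and 7 that in si2. COL1A2 and POSTN had 0 reads in every library. All libraries came from the SK-MES-1 line, so these sums are not read as numbers of other cells. In bulk RNA, more expressing cells of the line and more RNA per cell cannot be told apart. The part of any of these markers in the values of the C/EBP genes was not tested.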

How the data were processed

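The deposited table gives FPKM per gene for 6 libraries. Per the submitters' processing notes the genome build was hg38. The aligner, the counter and the use of strand are not given in the sources used here. FPKM times gene length gave whole reads for 100% of values (tolerance 0.001 reads) in the authors' table, so depth was known. Differences were fitted with limma 3.58.1 in R 4.3.3 on log2(FPKM + 1). Genes needed a mean of 1 FPKM (12319 genes). All 6 libraries entered with 1 coefficient per group, a mean-variance trend and 3 residual degrees of freedom. Tests were two-sided, with Benjamini-Hochberg adjustment over all genes tested and a threshold of 0.05. SE values come from this fit. The fit was also run on simulated reads, with a common spread for all genes and changes in si1 only. That setting differs from the data, so it does not show the error rate of the calls given here.

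Members and lists were chosen with earlier results of these data known. The text names all members, those overlapping or neighbouring genes that were tested or overlap a member with reads, the 2 to 5 genes most like each, and the 4 genes of each list with the largest called differences; 1 gene that this rule names is not reported here. ATF4, DDIT3, NFIL3, STAT3, SOCS3, IL6, IL6ST, TRIB3, CALR, C3, LCN2, SAA1, CXCL5, CXCL8, PTGES, SLC7A11, PSAT1, MTHFD2, DDIT4, GCLC, PLIN2, KLF4, SLC1A5, SLC3A2, COL1A1 and KRT15 were singled out after their values were seen, where they fall outside that rule. The same holds for IL6R, LIFR, IL1R1, IL1RAP, PPARG, PNPLA2, CDKN1A and GADD45A. 1 list symbol on 2 rows of the table was left out. Motifs were searched on both strands of RefSeq windows (GRCh38.p14). The replicate numbers come from library names. The 12 alternatives were a pseudocount of 0.1, no filter, median-ratio scaling, limma-voom on recovered reads, only the 2 groups compared, a replicate block, and leaving out each library.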

Additional observations from a re-analysis of the deposited data

Results flagged for a closer look

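Several genes lay on opposite sides of NC in the 2 knockdown groups, with every library of si1 on one side and every library of si2 on the other. The difference si2 minus si1 on the log2(FPKM + 1) scale is given for each. How many of all tested genes show this pattern is not given here. For some of these genes the difference from NC in si1 was not past the threshold, as for SCD (0.06) and PEPD (0.14). For others that in si2 was not, as for SOCS3 (-0.08), CXCL8 (0.13) and SLC1A5 (0.14). For IL1A and PTX3, among others, both were past it. CEBPG differed by 0.86; the fit over all genes called it higher, which is not read as a test because CEBPG was chosen from these data. The other genes were past the same threshold, but they were picked for lying on opposite sides of NC, which favours such a difference. Those calls are not read as a test either.

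Around CEBPG, the difference was 0.67 for ATF4, 0.91 for TRIB3, 1.10 for SLC7A11, 1.06 for PSAT1, 1.17 for SLC7A1, 0.77 for SLC3A2 and 0.54 for SLC1A5, all higher in si2 than in si1. Its neighbour PEPD differed by -0.52. Among signalling and inflammatory genes, IL1A differed by 1.84, PTX3 by 2.23 and CXCL8 by 0.85, whereas SOCS3 differed by -0.50 and PTGES by -1.46. COP1 differed by 0.77, KLF4 by 0.74 and NIP7 by 1.01. SCD differed by -0.99. Of the epithelial markers, TP63 differed by 1.01 and KRT19 by -1.03.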

How the results depend on the processing

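The differences of the members kept their direction under all 12 alternatives. CEBPD ranged over 1.83 to 1.99 in si1 against NC, 0.89 to 1.05 in si2 against NC and -1.02 to -0.86 in si2 against si1, with 1.99 from limma-voom on recovered reads. CEBPB ranged over 0.46 to 0.55 in si1 and 0.37 to 0.42 in si2, and CEBPG over -0.81 to -0.64 in si1, 0.06 to 0.21 in si2 and 0.78 to 0.95 in si2 against si1. Of all genes, 2758 changed in si1 against NC, 3578 in si2 against NC and 4743 in si2 against si1. Without the filter on low values these counts were 1414, 1785 and 3130. Leaving out 1 library gave 1114 to 2443, 1490 to 4047 and 2973 to 4367, the lone library being assumed to vary like the other groups. With the replicate number as a block they were 2335, 3121 and 4314. Libraries with the same number deviated with correlations of -0.06, -0.05 and 0.05 between groups, so the numbers serve as names. Of the results on named genes under the alternatives, 2453 kept their side of the threshold, 182 lost it and 29 gained it. These counts leave out IL6R, LIFR, IL1R1, IL1RAP, PPARG, PNPLA2, CDKN1A and GADD45A, whose calls under the alternatives are not given gene by gene. Where a call is said above to be lost without certain libraries, a processing choice also ended it for several of those genes. Of the counts of list genes, 827 stayed within 1.5 times the reported count and 181 did not. The causes were not tested. With 2 libraries a group, differences of low genes such as CEBPA are below what this depth can show.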
